A study of Homo sapiens with 6 samples.

Results

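HCT116 is an established human colorectal carcinoma cell line, and CD133 is a surface glycoprotein, the product of PROM1, used to enrich tumour-initiating cells. The integrins and laminins described here are the genes whose symbols follow the integrin alpha and beta or the laminin alpha, beta and gamma naming on the array, each represented by its probe set. They comprised 38 of 18404 genes measured. Of these, 25 were integrin subunits and 10 were laminin chains. The other 3, ITGB1BP1, ITGB1BP2 and ITGB3BP, are no subunits but proteins named for binding the tail of a beta subunit, and are given apart. The members were chosen by name and not by a cut on measured values, but with earlier results of these data known.

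The 6 arrays comprised 3 of HCT116 cells sorted as CD133+ and 3 of HCT116 cells sorted as CD133-, numbered as repetitions 1, 2 and 3 in each. All arrays come from this 1 line, with no other treatment in the labels, and the comparison asks which transcripts differ between the sorted fractions. Nothing in the labels ties a repetition to its own culture or sort, and p-values therefore cover only the spread among these arrays, part of which may be technical. Values are log2 signals from Robust Multichip Average (RMA), and each difference is CD133+ minus CD133- on the log2 scale.

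Integrins are receptors made of an alpha and a beta subunit that span the membrane, bind matrix or cell surface ligands outside and connect to the actin or keratin cytoskeleton inside. Laminins are secreted trimers of an alpha, a beta and a gamma chain, and they form the sheet of the basement membrane on which intestinal epithelium rests. Which beta subunit joins an alpha subunit sets the ligands that a cell can hold. ITGB5 and ITGB8 are known to pair with ITGAV alone, whereas ITGB1 pairs with many alpha subunits, ITGA2 and ITGA9 among them.

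PROM1 measured 7.59, 7.36 and 7.09 in CD133+ repetitions 1, 2 and 3, against 5.30, 4.46 and 3.97 in CD133- cells, so the fractions did not overlap for the gene of the sort. Over the 28230 probe sets tested, the arrays had medians of 5.44 to 5.60, and the median of the mean signals, used below as a mark of dim transcripts, was 5.53. Of 10 epithelial markers 7 exceeded that median in the higher fraction. As a list, 5 were higher and 5 lower, and 0 passed limma, a linear model fitted across all probe sets, either with group alone or with the repetition as a block, which compares the fractions within repetitions (1 and 3 at an unadjusted p under 0.05). The keratins KRT18 and KRT8 had differences of -0.48 and -0.24, with groups that did not overlap, against 4.52% of all genes in that direction. The keratin KRT19 had 0.043 and CDH1 had 0.40, with groups that overlapped. EPCAM averaged 11.11 ± 0.12 in CD133+ and 10.89 ± 0.12 in CD133- cells (SD, n = 3 each). The intestinal markers VIL1 (4.47 and 4.59), CDH17 (3.23 and 3.09) and GPA33 (4.77 and 4.78) lay below the median signal in both fractions. The intestinal markers CDX2 (7.07 and 7.02) and CDX1 (6.68 and 6.76) lay above it in both. Of 9 measured leukocyte markers 0 passed in either fit (0 at an unadjusted p under 0.05 in either fit). PTPRC, which defines leukocytes, averaged 2.44 in CD133+ and 2.33 in CD133- cells. Another 3 of the 9 exceeded the median signal, namely CD68 (7.10 and 6.88), TYROBP (6.83 and 6.78) and CORO1A (5.94 and 6.11). The platelet and the fibroblast and endothelial markers also had 0 of 6 and 0 of 10 members passing in either fit, with 1 and 0 members at an unadjusted p under 0.05 in each fit. In the higher fraction 2 of 6 and 1 of 10 exceeded the median signal.

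Most integrin and laminin transcripts were close to equal in the fractions, and a few stood away from 0 on the same side in every repetition. ITGB8, ITGB5, ITGA9 and LAMB1 were lower in CD133+ cells in 3 of 3 repetitions with a difference of at least 0.3, and ITGA2 was higher in 3 of 3. These 5 of 38 members compare with 5.85% of all genes meeting the same rule, 3.02% higher and 2.83% lower. Without the bound on size, 8 members were higher and 9 lower in 3 of 3 repetitions, against 36.2% of all genes that kept 1 sign. The other 33 members had differences between -0.23 and 0.25.

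The median difference was -0.055 over the 25 integrin subunits, with 10 higher and 15 lower, and 0.0021 over the 10 laminin chains, with 5 higher and 5 lower. Over all 18404 genes the median was -0.0064. Within repetitions 1, 2 and 3 the integrin median was -0.056, -0.0041 and -0.020, and the laminin median was 0.013, 0.018 and 0.028. The medians of the measured members thus lay near that of all genes.

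With limma and group as the only term, 0 of 38 members passed an adjusted p of 0.05, against 0.00354% of all probe sets, and the adjusted p was 1.00 for each member. PROM1, the gene of the sort, did not pass with group alone either (limma adjusted p = 0.142), though it passed with the block (limma adjusted p = 0.0120). At an unadjusted p under 0.05 the fit with group alone held 3 members, ITGB5, ITGA9 and ITGA2, against 3.45% of probe sets. With the repetition as a block, 1 of 38 passed, ITGB8, against 0.298% of probe sets in either direction and 0.131% in the lower direction. At an unadjusted p under 0.05 the block fit held 6 members, 1 higher and 5 lower, against 11.3% of probe sets. The groups did not overlap for 4 members, ITGB5, ITGA9 and ITGB7, all lower, and ITGB1, higher, against 7.95% of all genes, 4.52% lower and 3.43% higher.

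**Figure D1:**
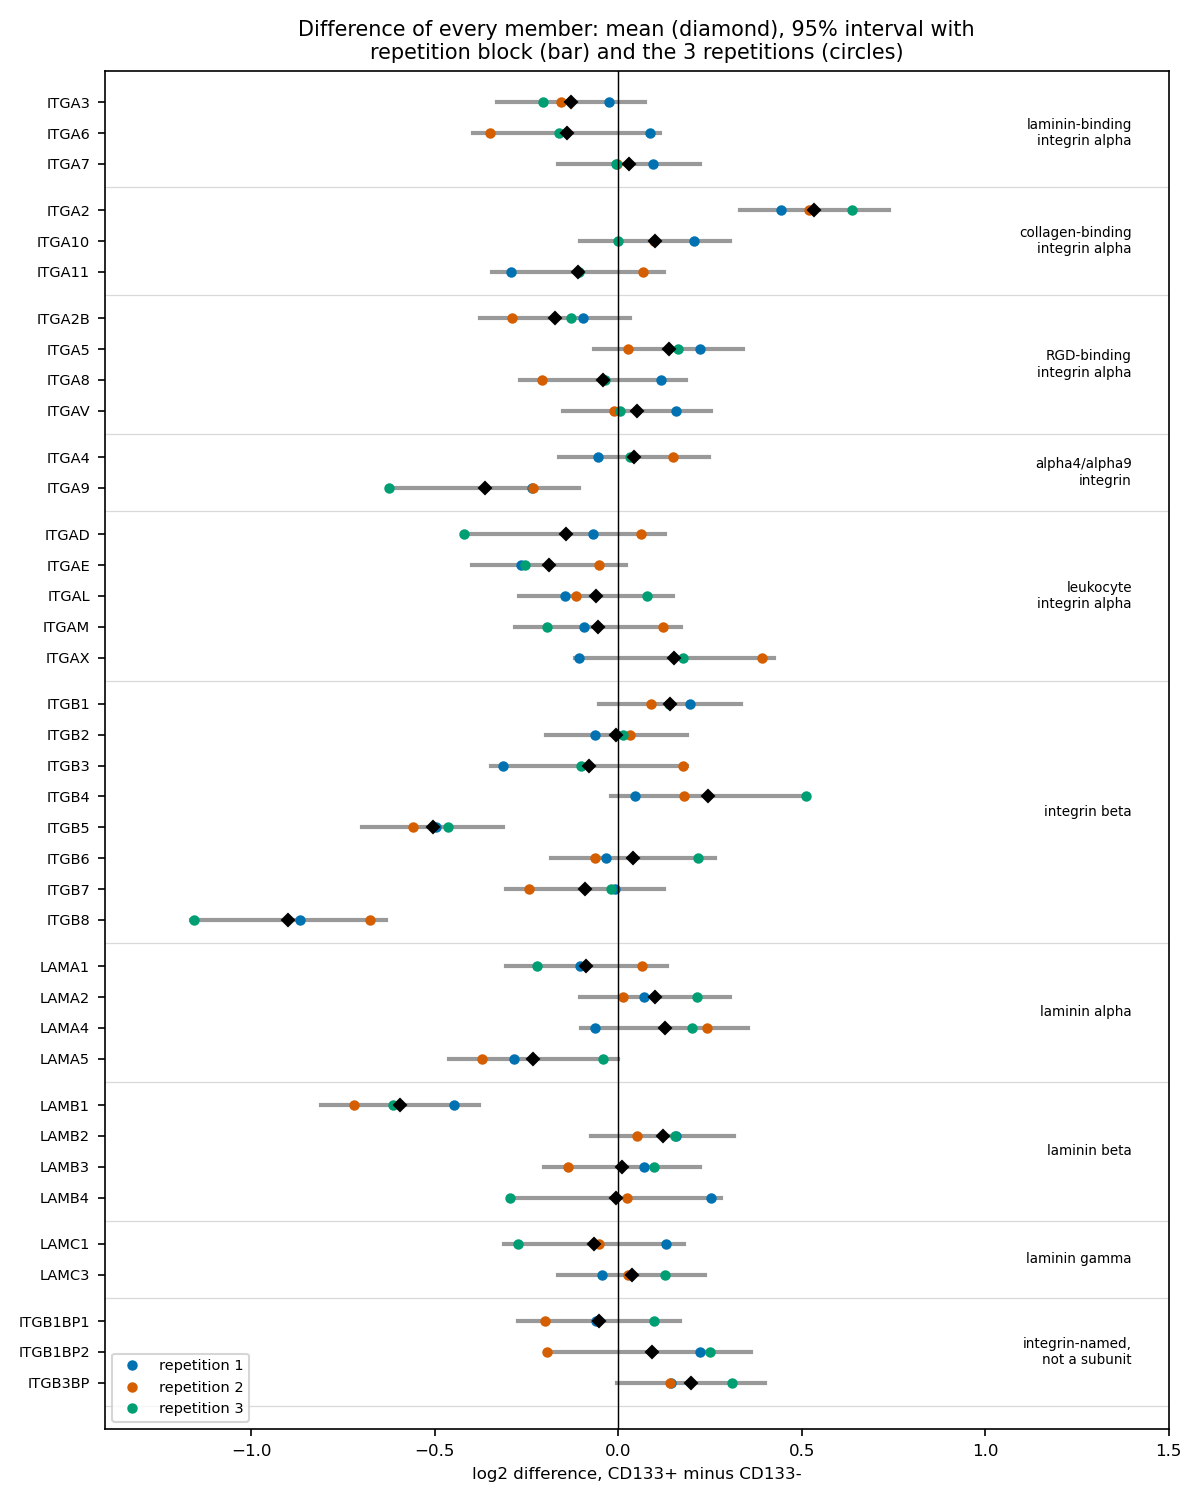
Difference of every member on the log2 scale (CD133+ minus CD133-, horizontal axis), grouped by role down the page. Diamonds are means, bars are 95% intervals from the limma fit with the repetition block, and circles are the 3 repetitions. ITGB8, ITGB5, ITGA9 and LAMB1 lie to the left of 0 and ITGA2 to the right in every repetition. The means of the other members lie between -0.23 and 0.25, with some single repetitions outside that range.

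ITGB8, which with ITGAV forms a receptor that binds latent TGF-beta and releases the active cytokine, fell in CD133+ cells with the repetition block. It measured 4.79, 5.34 and 5.96 in CD133+ repetitions 1, 2 and 3, against 5.65, 6.02 and 7.12 in CD133- cells. The CD133+ mean of 5.36 lay below the median signal of 5.53, the mark of dim transcripts, and the CD133- mean of 6.26 above it. Repetition 3 was high and repetition 1 low in both fractions, so the groups overlapped although each CD133+ array lay below the CD133- array of its own number. The difference was -0.90 (SE 0.11 with the block, SE 0.41 with group alone), or 1.87-fold lower, and within repetitions it was -0.87, -0.68 and -1.16. The limma adjusted p was 0.0455 with the block and 1.00 with group alone. An exact permutation test over the arrays, two-sided, gave p = 0.2, where 0.1 is the smallest possible. That test, here and below, ignored the repetition numbers, so it did not test the difference within repetitions. The call ended when any 1 repetition was left out of the block fit (limma adjusted p = 0.0796 to 0.204). In sorted cell pools, fewer cells with the transcript and less transcript per cell cannot be told apart.

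ITGB5, which with ITGAV forms a vitronectin receptor of epithelial cells, had the most even difference of the members that stood away from 0. It measured 7.80, 8.15 and 8.06 in CD133+ cells, against 8.30, 8.71 and 8.52 in CD133- cells. Every CD133+ array lay below every CD133- array. The difference was -0.51 (SE 0.080 with the block), or 1.42-fold lower, with -0.50, -0.56 and -0.46 within repetitions. It did not pass (limma adjusted p = 0.0860 with the block, 1.00 with group alone), and the exact two-sided permutation p was 0.1, the smallest it can give.

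ITGAV, the alpha partner of both, measured 8.18, 7.98 and 7.93 in CD133+ cells, against 8.02, 7.99 and 7.92 in CD133- cells. The groups overlapped, and the difference of 0.050 had a 95% interval of -0.15 to 0.25 in the block fit. The other beta subunits that pair with ITGAV were ITGB1, ITGB3 and ITGB6. ITGB3, the beta chain of the platelet fibrinogen receptor, had a difference of -0.080 (95% interval -0.35 to 0.19). ITGB6, which also binds latent TGF-beta, had 0.040 (95% interval -0.18 to 0.26). Neither exceeded the median signal of 5.53 in either fraction.

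ITGA2, the alpha subunit of a collagen receptor with ITGB1, had the largest positive difference of the members. It measured 8.29, 7.81 and 8.06 in CD133+ cells, against 7.85, 7.29 and 7.42 in CD133- cells. The lowest CD133+ array lay just under the highest CD133- array, from another repetition, and within repetitions CD133+ was higher by 0.44, 0.52 and 0.64. The mean difference was 0.53 (SE 0.084 with the block), or 1.45-fold higher, with limma adjusted p = 0.0864 with the block and 1.00 with group alone. The exact two-sided permutation p was 0.2.

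ITGA9, whose receptor with ITGB1 binds tenascin-C and other ligands, measured 5.68, 5.61 and 5.53 in CD133+ cells, against 5.92, 5.84 and 6.16 in CD133- cells. All CD133+ arrays lay below all CD133- arrays. The difference of -0.36 (SE 0.11 with the block) was -0.24 and -0.23 within repetitions 1 and 2 and -0.63 within repetition 3, and it did not pass (limma adjusted p = 0.290 with the block). ITGA9 exceeded the median signal by little.

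ITGB1, the shared partner of ITGA2 and ITGA9, measured 9.87, 9.73 and 9.72 in CD133+ cells, against 9.68, 9.64 and 9.58 in CD133- cells. The groups did not overlap, but the difference was small at 0.14 (95% interval -0.051 to 0.33, limma adjusted p = 0.575 with the block). Side by side the differences were 0.53 for ITGA2, -0.36 for ITGA9 and 0.14 for ITGB1, and these were not tested against each other.

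**Figure D2:**
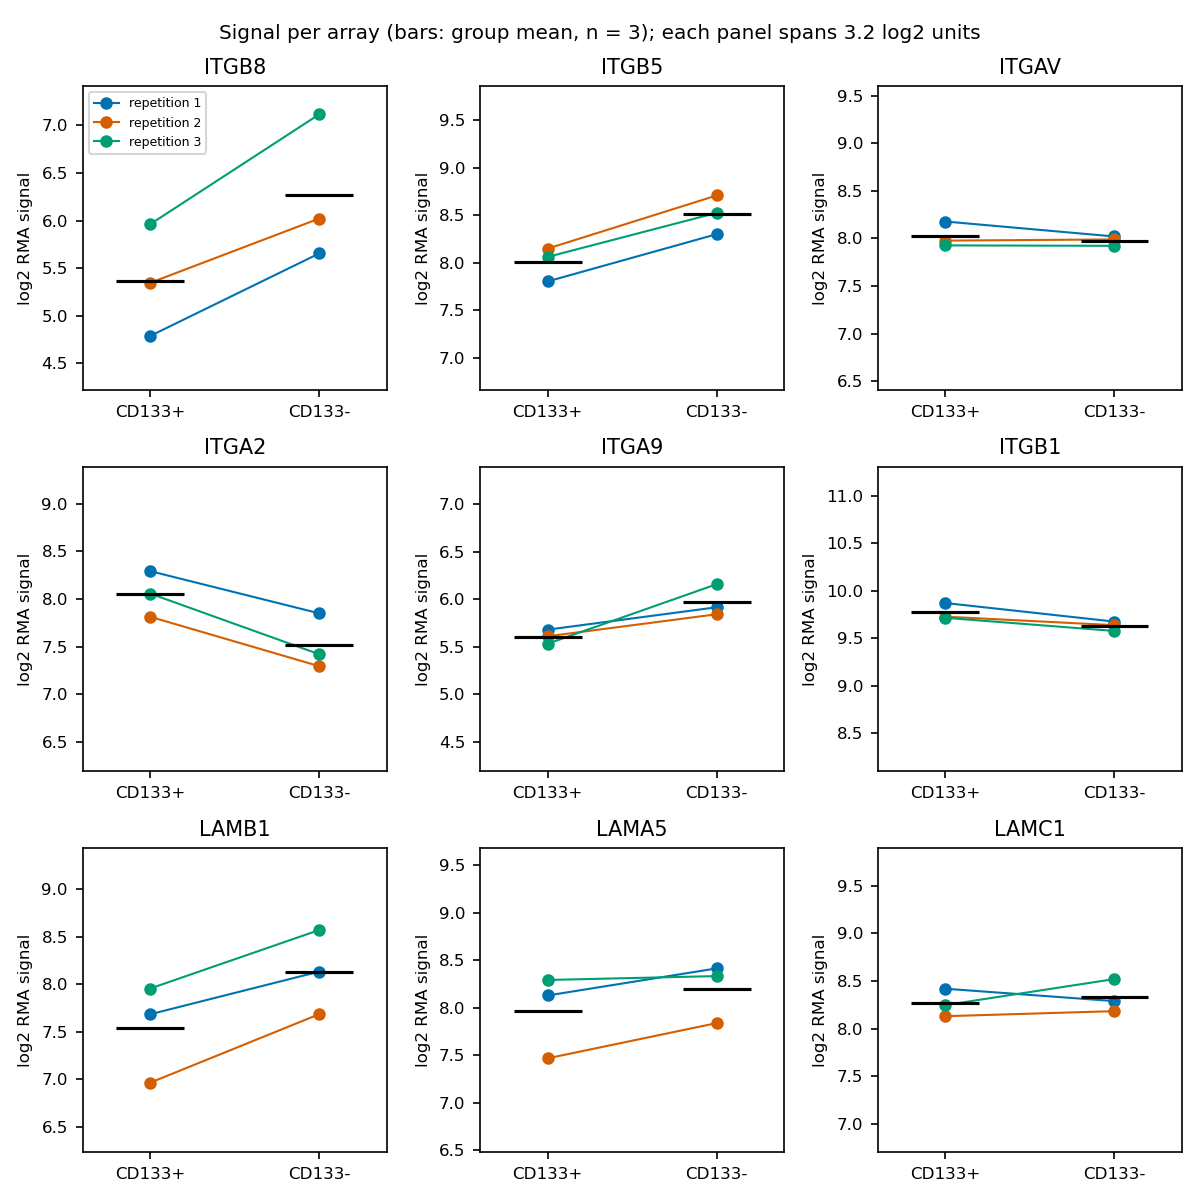
Log2 RMA signal (vertical axis) of 9 members in CD133+ and CD133- arrays, with lines joining arrays of the same repetition and black bars at the group means (n = 3). In the ITGB8, ITGB5, ITGA9, LAMB1 and LAMA5 panels all 3 lines rise towards CD133-, for LAMA5 only slightly in repetition 3. In the ITGA2 and ITGB1 panels all 3 fall, by less for ITGB1. The ITGAV lines are near level, and the LAMC1 lines have no common direction.

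Among the alpha subunits that bind laminin, ITGA3, ITGA6 and ITGA7, 0 of 3 passed and the differences were -0.13, -0.14 and 0.029. ITGA6 pairs with ITGB4 in hemidesmosomes, which anchor epithelium to laminin, or with ITGB1. ITGA6 was higher in CD133+ repetition 1 by 0.087 and lower in repetitions 2 and 3, at -0.35 and -0.16. ITGB4 had 0.25 (95% interval -0.020 to 0.51) and was higher by 0.045, 0.18 and 0.51 within repetitions. ITGB4 was, with LAMA5, the member next below the 0.3 bound among those of 1 sign.

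ITGA5, the fibronectin receptor's alpha subunit, was higher in 3 of 3 repetitions by 0.22, 0.026 and 0.16, with a mean of 0.14 (95% interval -0.067 to 0.34) that did not pass. The remaining collagen, fibronectin and fibrinogen receptor subunits were dim. ITGA10 and ITGA11, ITGA2B of platelets and ITGA8 had differences of 0.10, -0.11, -0.17 and -0.042, with 0 of 4 passing and 0 of 4 above the median signal.

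Integrins of leukocytes were low in both fractions. ITGAD, ITGAE, ITGAL, ITGAM and ITGAX spanned 3.75 to 5.06 over the CD133+ arrays and 3.73 to 5.29 over the CD133- arrays, and 0 of 5 exceeded the median signal. ITGB2, the beta subunit of ITGAD, ITGAL, ITGAM and ITGAX, had a difference of -0.0062 (95% interval -0.20 to 0.19). ITGAE, which with ITGB7 binds E-cadherin, had -0.19, and ITGB7 had -0.091, with all CD133+ arrays below all CD133- arrays but within repetitions only -0.010 and -0.020 in repetitions 1 and 3 and -0.24 in repetition 2. ITGA4, the other lymphocyte alpha subunit, had 0.042. In all, 19 of 38 members exceeded the median signal in neither fraction.

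LAMB1, the beta chain of the laminins that also hold LAMC1, had the largest difference of the laminin chains. It measured 7.69, 6.97 and 7.96 in CD133+ cells, against 8.13, 7.69 and 8.57 in CD133- cells. Repetition 2 was low and repetition 3 high in both fractions, and the groups overlapped. Within repetitions CD133+ was lower each time, at -0.45, -0.72 and -0.61. The mean was -0.59 (SE 0.090 with the block), or 1.51-fold lower, with limma adjusted p = 0.0808 with the block and 1.00 with group alone, so LAMB1 did not pass.

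LAMC1, the gamma chain in the same trimers, measured 8.42, 8.13 and 8.25 in CD133+ cells, against 8.29, 8.18 and 8.52 in CD133- cells. Its difference of -0.065 had no common sign, being 0.13, -0.053 and -0.27 within repetitions (95% interval -0.31 to 0.18). LAMA5, the main alpha chain of adult epithelial basement membranes, measured 8.13, 7.47 and 8.29 in CD133+ cells, against 8.41, 7.84 and 8.33 in CD133- cells. It was lower in 3 of 3 repetitions, at -0.28, -0.37 and -0.041, with a mean of -0.23 (95% interval -0.46 to -0.0018, limma adjusted p = 0.438 with the block).

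LAMB2, which replaces LAMB1 in some trimers, and LAMB3 had differences of 0.12 (95% interval -0.073 to 0.31) and 0.010 (95% interval -0.20 to 0.22), both with the block. With group alone the 95% interval of LAMB2 was -0.72 to 0.96. LAMB3 belongs to the laminin of epithelial anchoring complexes. LAMA1, LAMA2 and LAMA4, chains of embryonic, muscle and vascular basement membranes, had -0.087, 0.099 and 0.13, and none of these 3 exceeded the median signal. LAMB4 had -0.0060 and LAMC3 had 0.037. ITGA1 was not analysed here, as its probe set carries a second gene symbol. Of the 12 laminin chain genes 2 were not analysed here either.

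Of the 3 proteins that only share the name, ITGB3BP, a kinetochore protein also known as CENPR, had 0.20 and was higher in 3 of 3 repetitions (95% interval -0.0047 to 0.40, limma adjusted p = 0.451 with the block). ITGB1BP1, which binds the ITGB1 tail and holds the integrin inactive, had -0.054, and ITGB1BP2, a chaperone-like muscle protein, had 0.093. None of these 3 passed.

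The sequences around the annotated starts of ITGB8, LAMB1 and ITGA2 are shown because these genes had the largest negative and positive differences among members with a single annotated start in the RefSeq table (GRCh38.p14). Each window runs from 250 bases before to 50 bases after the start, 5′ to 3′ on the gene's strand, and capitals mark the GC box GGGCGG or its reverse complement CCGCCC, the motif bound by Sp-family factors. The windows are chr7:20330650-20330949, plus strand for ITGB8, chr7:108003112-108003411, minus strand for LAMB1, and chr5:52989102-52989401, plus strand for ITGA2.
ITGB8: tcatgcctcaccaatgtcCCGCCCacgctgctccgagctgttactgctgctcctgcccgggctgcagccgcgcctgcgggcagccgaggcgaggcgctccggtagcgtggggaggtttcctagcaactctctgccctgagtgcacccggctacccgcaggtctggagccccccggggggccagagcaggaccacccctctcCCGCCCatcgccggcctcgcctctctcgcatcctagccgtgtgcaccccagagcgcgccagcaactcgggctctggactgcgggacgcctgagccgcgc
LAMB1: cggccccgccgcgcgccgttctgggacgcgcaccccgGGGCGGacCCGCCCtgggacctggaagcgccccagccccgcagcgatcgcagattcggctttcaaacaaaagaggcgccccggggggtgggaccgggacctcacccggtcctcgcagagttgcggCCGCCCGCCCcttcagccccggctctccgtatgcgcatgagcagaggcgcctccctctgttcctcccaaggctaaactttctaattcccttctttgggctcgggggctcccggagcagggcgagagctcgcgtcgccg
ITGA2: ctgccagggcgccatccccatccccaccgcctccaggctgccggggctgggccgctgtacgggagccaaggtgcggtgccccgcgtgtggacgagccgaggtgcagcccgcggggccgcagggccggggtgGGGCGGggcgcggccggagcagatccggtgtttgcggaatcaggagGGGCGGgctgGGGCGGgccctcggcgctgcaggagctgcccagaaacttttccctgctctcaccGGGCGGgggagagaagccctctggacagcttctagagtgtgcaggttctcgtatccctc
The windows held 2, 4 and 4 matches, of which 1 pair in LAMB1 overlaps, and 45.0% of all 35116 windows in the table held at least 1. Their GC content was 71.7%, 71.0% and 72.7%, against a median of 58.7% over all windows. The 3 windows were thus alike in GC content and all held the motif, although ITGA2 was higher and ITGB8 and LAMB1 were lower, and a match describes the letters and identifies no site in use. ITGB5 has 3 annotated starts, with 2, 2 and 3 matches and a GC content of 49.7%, 59.7% and 75.7%.

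The partners of integrins were taken from lists chosen by function. Over all probe sets, 3.45% were at an unadjusted limma p under 0.05 with group alone and 11.3% with the block. Of all 18404 genes 9587 were lower. From each list, the genes named are those that passed in either fit, else those with the smallest unadjusted limma p with the block. Genes named outside this rule are marked as chosen after their values were seen. Of 39 measured integrin activators and focal adhesion proteins 0 passed with limma in either fit (1 at an unadjusted p under 0.05 with group alone, 7 with the block, 1 higher and 6 lower), with a list median of -0.088 and 28 members lower. FERMT1, the epithelial kindlin that activates integrins, measured 7.55, 8.32 and 7.14 in CD133+ cells, against 7.12, 8.04 and 6.67 in CD133- cells, a difference of 0.40 (limma adjusted p = 0.164 with the block). FERMT2, another kindlin, was chosen after its value was seen and went the other way at -0.27 (limma adjusted p = 0.313 with the block). It measured 7.96, 8.04 and 7.78 in CD133+ cells, against 8.13, 8.37 and 8.08 in CD133- cells. FERMT3, a further kindlin also chosen after its value was seen, had 0.014. TNS3, a tensin that links integrin tails to actin, had -0.45 (limma adjusted p = 0.184 with the block), and its groups did not overlap. None of these kindlins passed, nor did TNS3.

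Of 11 hemidesmosome and integrin-associated membrane proteins 0 passed in either limma fit (2 at an unadjusted p under 0.05 with group alone, 3 with the block), with a median of 0.050. CAV1, the caveolin that associates with integrins, measured 9.56, 9.92 and 9.67 in CD133+ cells, against 8.98, 9.05 and 9.00 in CD133- cells. Its groups lay well apart, and the difference of 0.71 was 1.63-fold higher (limma adjusted p = 0.0566 with the block). CD47, the integrin-associated protein that also binds thrombospondin, measured 8.56, 8.36 and 8.38 in CD133+ cells, against 8.12, 8.03 and 7.73 in CD133- cells, a difference of 0.47 (limma adjusted p = 0.149 with the block). The 18 measured basement membrane partners and laminin receptors had a median of 0.0051, differences between -0.092 and 0.098, and 0 members passing or at an unadjusted p under 0.05 in either limma fit. COL18A1 and HSPG2, of the basement membrane, had 0.098 and -0.092.

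Of 25 measured other ligands of integrins, 3 fell with the block and 0 rose, against 0.298% of probe sets passing in either direction and 0.131% lower. At an unadjusted limma p under 0.05 the block fit held 9, 1 higher and 8 lower, against 11.3% of probe sets. The list median was -0.077 and 18 were lower. FN1, encoding fibronectin, measured 5.53, 5.16 and 5.77 in CD133+ cells, against 6.43, 6.17 and 6.74 in CD133- cells. Its CD133+ mean of 5.48 lay just below the median signal. THBS1, a thrombospondin, measured 6.53, 7.50 and 6.66 in CD133+ cells, against 7.42, 9.09 and 8.10 in CD133- cells. CCN1, a matricellular ligand of receptors with ITGAV, measured 8.46, 8.53 and 8.38 in CD133+ cells, against 9.31, 9.39 and 9.67 in CD133- cells. All 3 were lower in CD133+ cells in every repetition (limma adjusted p = 0.0203, 0.0338 and 0.0381 with the block), and 0 of 25 passed with group alone (6 at an unadjusted p under 0.05). The groups overlapped for THBS1 but not for FN1 and CCN1. Without repetition 3 the block fit passed 0 probe sets, so these calls ended there. Of the ligands that did not pass, 2 chosen after their values were seen had differences of like size and groups that did not overlap. CCN2, a matricellular relative of CCN1, had -1.31, or 2.48-fold lower (limma adjusted p = 0.0637 with the block). ICAM1, a ligand of leukocyte integrins, had -0.86 (limma adjusted p = 0.0697 with the block).

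Another 6 ligands of these receptors were chosen after their values were seen, for the receptors they bind, and did not pass. VTN, encoding vitronectin, had -0.053 (95% interval -0.28 to 0.18), and TNC, encoding tenascin-C, had -0.050 (95% interval -0.27 to 0.17). COL1A1, a collagen bound through ITGA2, had -0.19. Of the TGF-beta genes, TGFB1 had 0.0073, TGFB2 had -0.22 and TGFB3 had -0.29, the groups not overlapping for TGFB3 alone of these 3.

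**Figure D3:**
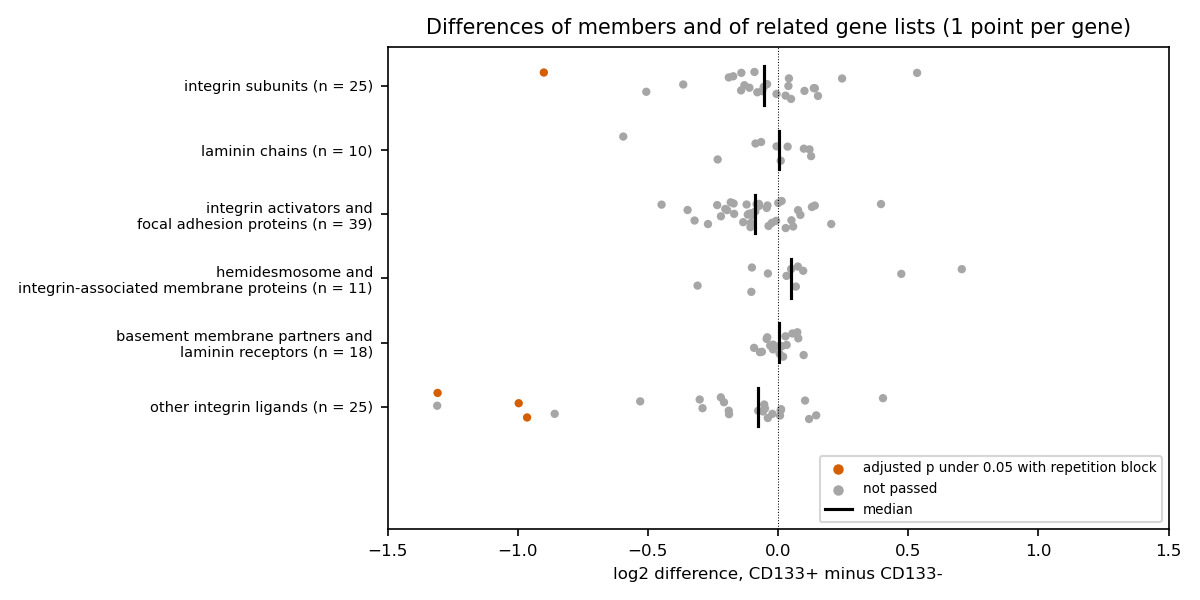
Log2 difference (CD133+ minus CD133-, horizontal axis) of each gene among integrin subunits, laminin chains and 4 lists of related genes down the page. Orange points passed limma with the repetition block, grey points did not, and black lines are medians. ITGB8 and the ligands FN1, THBS1 and CCN1 are the points that passed, all at negative differences.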

How the data were processed

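The deposited values were log2 signals that the authors made with Robust Multichip Average (RMA), per the labels' design text. Their range of 1.09 to 13.7 showed the log2 scale. The sources used here do not name the RMA software. The stated array is a U133 design, but row identifiers match the annotation of a whole-transcript Gene ST array, which was used. Of 32321 rows, the leading 4091 before the first row with a gene were left out as controls, and 28230 probe sets were tested.

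Members were symbols of ITGA or ITGB followed by a digit, ITGAV, ITGAE, ITGAL, ITGAM, ITGAX, ITGAD, and LAMA, LAMB or LAMC followed by a digit only, from probe sets with a single symbol. Each had 1 probe set, and 25 of 26 integrin subunit genes and 10 of 12 laminin chain genes in RefSeq were analysed here. The members and lists were chosen with earlier results of these data known. Of the lists, 39 of 45 activators, 11 of 12 hemidesmosome, 18 of 23 basement membrane and 25 of 25 ligand genes were measured.

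The fit was limma 3.58.1 in R 4.3.3 (lmFit, eBayes) on group alone, adjusted by Benjamini-Hochberg over all tested probe sets. The rule for single arrays took members that passed, members of 1 sign in 3 repetitions with an absolute difference of at least 0.3, and their partners above the median signal. Arrays of the same number deviated together from their group means (r = 0.447, 0.616 and 0.589 across probe sets), so the numbers paired the arrays by the data. Both fits were also run on simulated arrays with repetition offsets and independent noise. That checked the code, not whether such noise holds in these arrays. The number of arrays limits the precision.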

Additional observations from a re-analysis of the deposited data

How the results depend on the processing

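With the replicate block in place of group alone, 84 probe sets passed, against 1, and 1 member passed (ITGB8), against 0. Repeating the quantile normalization, centring arrays on their medians and including the leading rows each left 0 probe sets passing (1102, 906 and 1036 at an unadjusted limma p under 0.05). Without 1 array at a time they numbered 0 to 2, and with the block 43, 18 and 0 without repetition 1, 2 and 3. The number of members passing stayed at 0 in all these settings other than the block with all arrays. The filter above the median mean moved the integrin median to 0.029 and the laminin median to -0.028, over the brighter members only. Leaving out single arrays gave integrin medians of -0.055 to -0.022 and laminin medians of -0.10 to 0.058. Leaving out repetitions 1, 2 and 3 with the block gave integrin medians of -0.019, -0.026 and -0.045 and laminin medians of -0.049, 0.010 and 0.015. ITGB8, ITGB5, ITGA9, LAMB1, ITGA2 and ITGB1 kept their sign under all 15 alternatives, but several of these could not turn it. The block with all arrays, the filter, the leading rows and the mean of probe sets leave a difference unchanged. The block without 1 repetition cannot turn a sign that all 3 repetitions share, as they do for these genes. Signs turned for ITGAV, LAMC1 and LAMA5. ITGAV was at -0.026 without CD133+ repetition 1 and at -0.0041 with the block and without repetition 1. LAMC1 was at 0.0024 without CD133+ repetition 2, at 0.029 without CD133- repetition 3 and at 0.038 with the block and without repetition 3. LAMA5, at -0.23 with all arrays, was at 0.015 without CD133+ repetition 2. Over the left-out arrays ITGAV spanned -0.026 to 0.10, LAMC1 -0.14 to 0.029 and LAMA5 -0.41 to 0.015. Left-out single arrays unbalance the repetitions, and ITGB8 then ranged from -1.20 to -0.47, LAMB1 from -0.82 to -0.31 and ITGB5 from -0.61 to -0.41. The mean of all probe sets of a gene changed no member, each having 1. Of the 38 members, 19 were not above the median signal, which limits what their values can show.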
